A study of Mus musculus with 8 samples.

Results

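The comparison reported here is the difference between the type 2 and the type 1 cytokine response of cultured mouse eosinophils. For each gene it is the log2 change from E0 to E2 minus the log2 change from CN to E1, so it uses all 8 libraries of the series, 2 in each of 4 groups, and 15913 of the 15917 genes in the table. Eosinophils from the blood of C57BL/6 mice were cultured for 18 h. In the first experiment they received no cytokine (CN) or IFN-γ and TNF-α at 15 ng/mL (E1), a dose that the labels give without saying if it is for each cytokine. In the second they received IL-5 at 10 ng/mL (E0), or IL-5, GM-CSF and IL-4 at 10 ng/mL with IL-33 at 30 ng/mL (E2). The control of the type 2 response thus holds IL-5 and the control of the type 1 response holds none. IL-5 background and experiment therefore go with the mix, and their shares in a difference of responses cannot be told apart. All 4 groups came from mice that the growth protocol calls IL-5 transgenic, a line that overproduces the eosinophil growth factor, while the genotype label reads WT. The labels give no age or sex. They leave unsaid what the 2 libraries of 1 group are. Y-linked transcripts were found in replicate 1 and Xist in replicate 2 of each group, so the 2 did not come from 1 animal, and the spread that the p-values measure holds a difference of sex.

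IFN-γ signals through JAK kinases and drives IRF1, guanylate-binding proteins and antigen presentation. TNF-α acts through NF-kappaB. IL-4 signals through STAT6, IL-5 and GM-CSF share a beta chain that activates STAT5, and IL-33 binds ST2 and, like TNF-α, activates NF-kappaB. The receptors of IL-4, IL-5 and GM-CSF also work through JAK kinases, so JAK kinases and NF-kappaB are used by both mixes. Eosinophils are granule-bearing leukocytes of allergic and antiparasite immunity that can take up both type 1 and type 2 programs.

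Library totals ran from 60809057 to 95065752 counts, and the counting floor of 3 reads in a library stood at 0.0316 to 0.0493 CPM (counts scaled to library size). The eosinophil markers were present in all libraries: Siglecf, a lectin of mouse eosinophils, stood at 701 to 1004 CPM, and Ccr3, the eotaxin receptor, at 1191 to 2590 CPM. In bulk RNA, fewer cells of a type and less RNA per cell cannot be told apart. Expression values are CPM with TMM scaling, log2 changes are given ± standard error, and "called" means that edgeR's quasi-likelihood test over all genes gave an adjusted p (Benjamini-Hochberg) under 0.05.

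The mixes moved many genes unequally. Of the 15913 genes, 4018 (25.2%) had a called difference: 1798 (11.3%) responded more positively to the type 2 mix and 2220 (14.0%) to the type 1 mix. The difference was at least 2-fold for 863 and 1106 of them, and at least 8-fold for 159 and 249. With the replicate number as a block within each experiment, 3212 and 3609 were called. Without E2 replicate 1 the genes with the more positive type 2 response were 1177, and without E2 replicate 2 they were 1193. Across all genes tested the median difference was -0.02 on the log2 scale. As the background of single responses, 9.19% of genes were called higher and 8.08% lower in E1 versus CN, and 17.0% higher and 18.5% lower in E2 versus E0.

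Genes were then sorted by what each mix did. A gene counted as moved by a mix alone when its response to that mix was called and at least 2-fold, its other response was under 2-fold, and the responses differed. By that rule 381 genes (2.39%) rose with the type 1 mix alone and 380 (2.39%) with the type 2 mix alone, while 121 (0.760%) fell with the type 1 mix alone and 458 (2.88%) with the type 2 mix alone. Both mixes raised 216 genes (1.36%) and lowered 129 (0.811%) by at least 2-fold. Opposite movement was the smallest group: 63 genes (0.396%) rose with the type 1 mix and fell with the type 2 mix, and 79 (0.496%) did the reverse. These percentages are shares of all genes tested. The type 1-alone falls numbered 186 without E1 replicate 2 and 189 with the replicate block, and the type 1-up, type 2-down genes numbered 37 without E2 replicate 1. Another 628 genes with a called change of at least 2-fold met none of the rules.

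**Figure D1:**
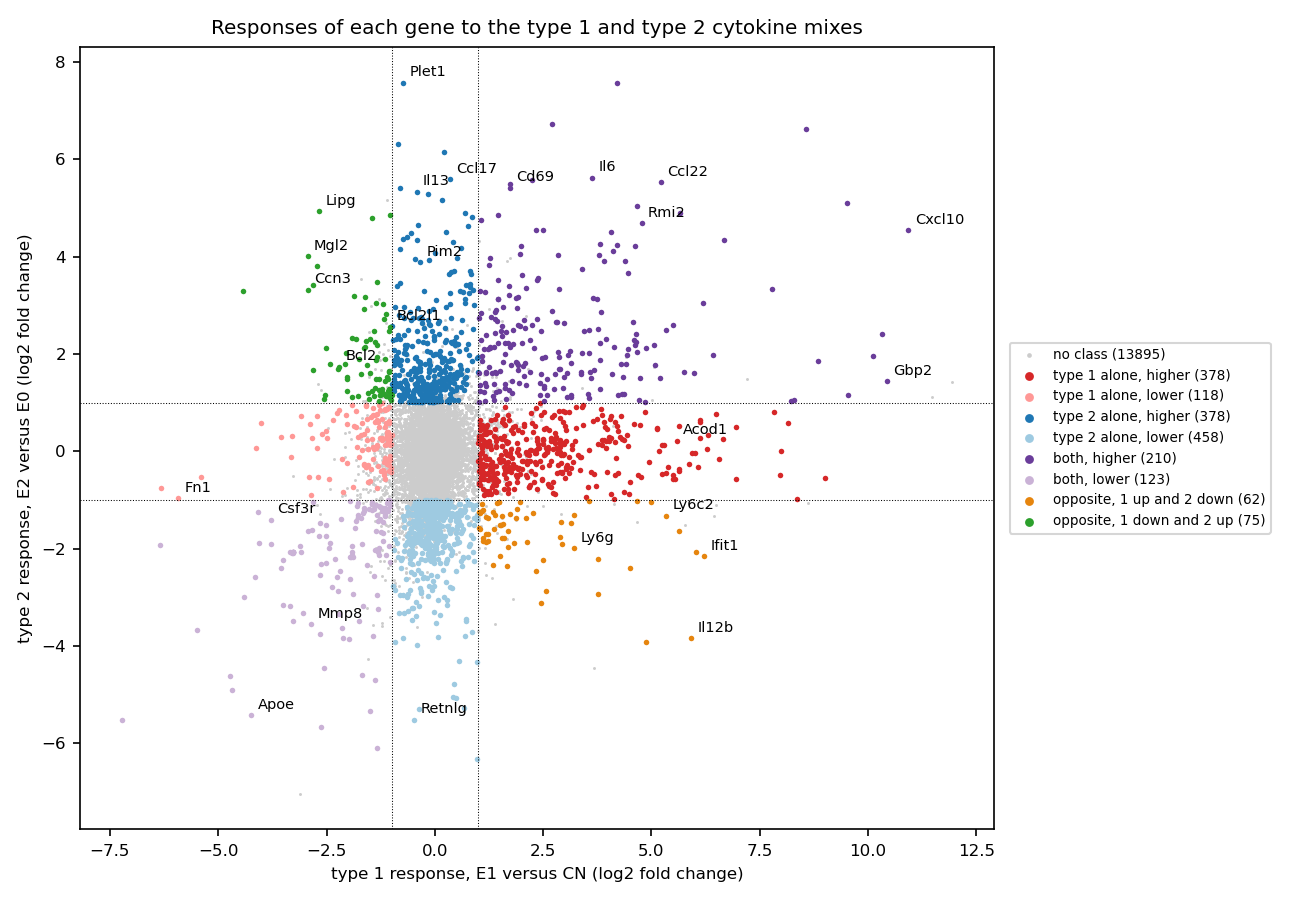
Each point is 1 gene, with the type 1 response (E1 versus CN, log2 fold change) on the horizontal axis and the type 2 response (E2 versus E0, log2 fold change) on the vertical axis, coloured by class. Dotted lines mark 2-fold changes, and genes with 3 or fewer counts over a whole group are left out, so class sizes in the legend can be a few genes smaller than in the text. The red arm (type 1 alone) and the blue arm (type 2 alone) lie along the axes, and the orange and green corners hold the genes that moved in opposite ways.

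Opposite movement was found in 3 neighbouring Ly6 genes, which encode small lipid-anchored surface proteins of myeloid cells (chromosome 15, 75044018 to 75159126, mm10). Ly6c2 stood at 92.9 and 105 CPM in CN against 4214 and 3784 in E1, then 53.0 and 37.5 in E0 against 20.6 and 15.5 in E2. Each mix separated its libraries from their controls, in opposite ways. The type 1 response was 5.34 ± 0.22, the type 2 response -1.32 ± 0.19 and the difference -6.66 ± 0.28 (adjusted p = 2.57e-06). Ly6g stood at 6.60 and 7.05 CPM in CN against 64.3 and 62.2 in E1, then 4.83 and 5.97 in E0 against 1.27 and 1.47 in E2, a difference of -5.20 ± 0.18 (adjusted p = 1.06e-06). Ly6c1, a close copy of Ly6c2 with which reads can be shared, had a difference of -7.29 ± 0.39 (adjusted p = 8.46e-06). Ly6g is also used as a neutrophil marker and Ly6c2 as a monocyte marker, and the other markers of those cells are given further on.

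Single genes with roles in phagocytosis, microbial sensing and cytokine output were also in this class, without their lists as a whole: it held 2 of 19 Toll-like receptor and sensor genes and 1 of 24 lysosome and phagocytosis genes. Fcgr4, an activating Fc receptor for IgG, stood at 4.60 and 3.71 CPM in CN against 21.9 and 20.3 in E1, then 5.97 and 8.46 in E0 against 1.27 and 1.38 in E2 (difference -4.80 ± 0.28, adjusted p = 1.33e-05). Mpeg1, the pore-forming perforin-2 of phagocytes, rose by 2.13 with the type 1 mix and fell by 1.86 with the type 2 mix. Tlr6, a partner of TLR2 in sensing bacterial lipoproteins, rose by 1.11 and fell by 1.21. Il12b, the shared subunit of IL-12 and IL-23, stood at 0.232 and 0.204 CPM in CN against 14.9 and 11.8 in E1, then 0.322 and 0.740 in E0 against 0.0469 and 0.0257 in E2. Its difference was -9.75 ± 0.62 (adjusted p = 2.28e-05), and the E2 libraries were near the counting floor. Itga4, the alpha chain of the VLA-4 integrin by which eosinophils bind VCAM-1, stood at 461 and 435 CPM in CN against 875 and 984 in E1, then 521 and 444 in E0 against 216 and 184 in E2. Its groups did not overlap in either experiment, and the difference was -2.32 ± 0.16 (adjusted p = 3.9e-05).

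The reverse pattern, down with the type 1 mix and up with the type 2 mix, held 79 genes of many roles, among them 2 of 22 BCL-2 family and caspase genes. Bcl2l1, which encodes the anti-apoptotic protein BCL-XL, stood at 62.2 and 55.7 CPM in CN against 30.7 and 26.8 in E1, then 40.7 and 41.0 in E0 against 242 and 241 in E2. The type 1 response was -1.04 ± 0.08, the type 2 response 2.56 ± 0.09 and the difference 3.60 ± 0.12 (adjusted p = 1.06e-06). Bcl2, its relative, stood at 23.3 and 15.6 CPM in CN against 4.53 and 3.86 in E1, then 16.3 and 14.2 in E0 against 52.3 and 49.5 in E2 (difference 3.95 ± 0.26, adjusted p = 2.93e-05). Both anti-apoptotic genes were lowest in E1 and highest in E2. Xbp1, a transcription factor of the unfolded protein response that eosinophil precursors need, fell by 1.14 with the type 1 mix and rose by 1.45 with the type 2 mix (difference 2.59 ± 0.11).

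Several of these genes were moved strongly in each direction. Ccn3, a matricellular protein also called NOV, stood at 93.8 and 67.5 CPM in CN against 12.5 and 8.74 in E1, then 21.7 and 22.5 in E0 against 226 and 216 in E2, a difference of 6.25 ± 0.27 (adjusted p = 2.91e-06). Car4, a membrane-anchored carbonic anhydrase, stood at 338 and 279 CPM in CN against 50.1 and 37.6 in E1, then 70.3 and 118 in E0 against 915 and 1085 in E2 (difference 6.23 ± 0.36). For both genes the IL-5 control E0 was below the cytokine-free control CN, by 1.87 and 1.72 on the log2 scale. Lipg, an endothelial-type lipase, had the same shape, with 95.6 and 117 CPM in CN against 14.5 and 19.0 in E1, then 15.8 and 12.9 in E0 against 485 and 395 in E2 (difference 7.61 ± 0.26, adjusted p = 1.06e-06). Hbegf, a ligand of the EGF receptor, fell by 2.04 and rose by 2.03, and Ptgs1, the constitutive cyclooxygenase, fell by 1.26 and rose by 1.17. The C-type lectin Mgl2 and the chitinase-like Chil3, both markers of alternative activation in macrophages, belonged here as well, with differences of 6.94 ± 0.69 and 6.25 ± 0.43.

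**Figure D2:**
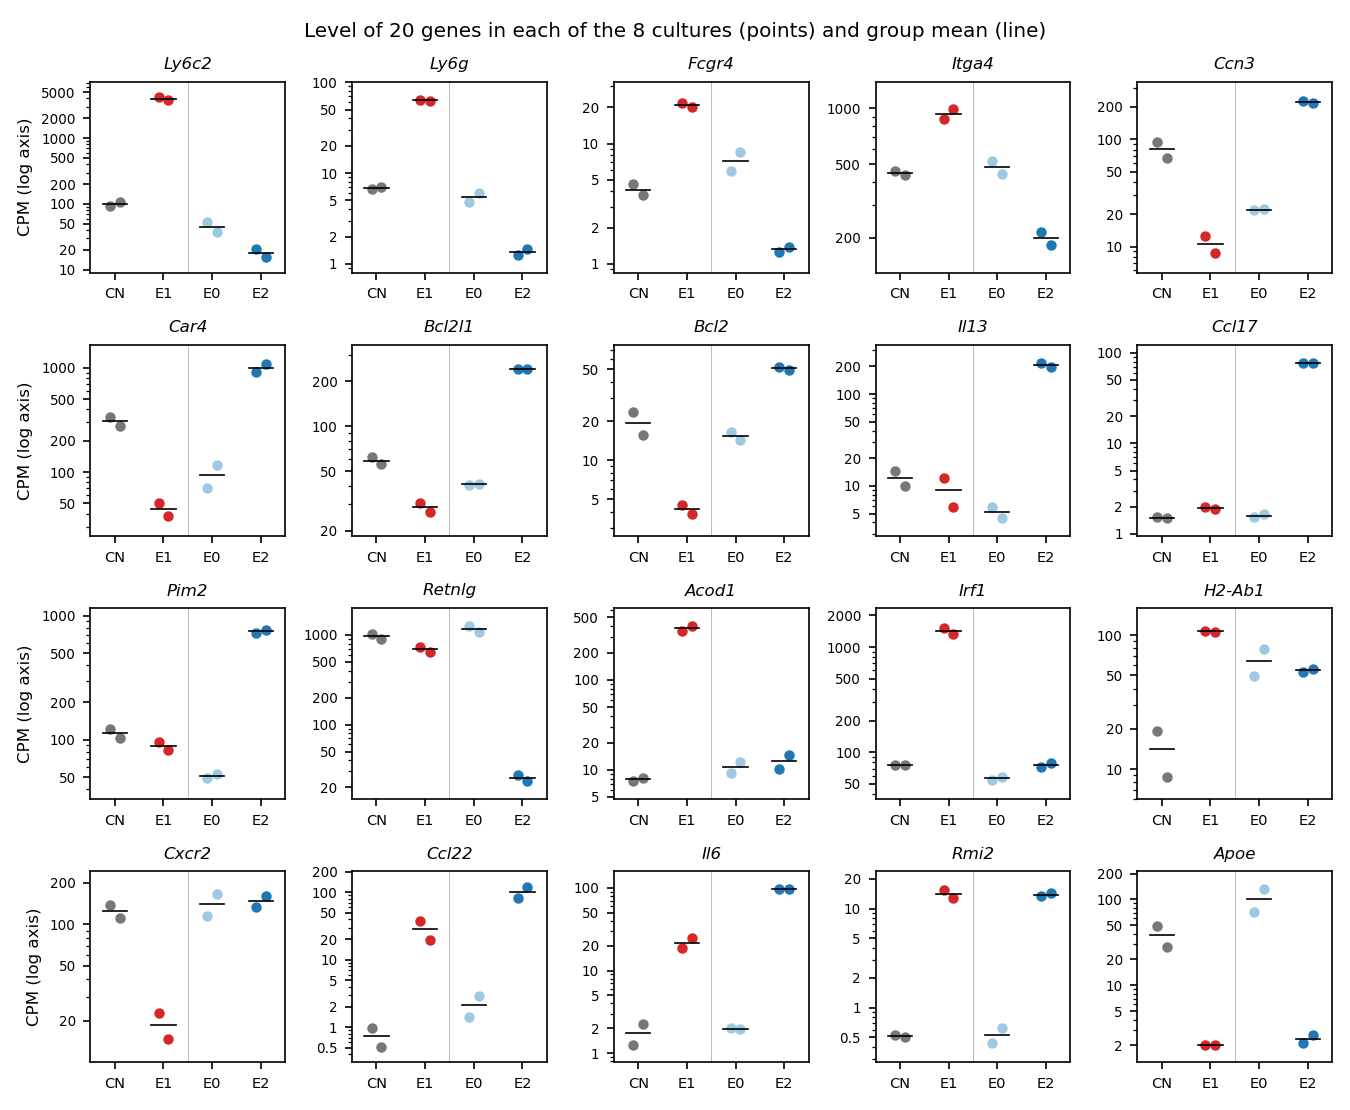
CPM on log axes for 20 genes in each of the 8 cultures (points, n = 2 per group) with the group mean (line). The grey vertical line separates the first experiment (CN, E1) from the second (E0, E2). The first 4 genes rise in E1 and fall in E2, the next 4 fall in E1 and rise in E2, Il13, Ccl17 and Pim2 rise in E2 alone, Retnlg falls in E2 alone, Acod1, Irf1 and H2-Ab1 rise in E1 alone, Cxcr2 falls in E1 alone, and the last 4 move the same way in both.

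Genes raised by the type 1 mix alone included Ly6i and the protein C receptor gene Procr, with the widest differences among those named (-8.46 and -7.98), and genes of antimicrobial defence. Irf1 (chromosome 11, 53770014 to 53778374), a transcription factor induced by interferons, stood at 75.8 and 76.4 CPM in CN against 1530 and 1325 in E1, then 55.0 and 58.7 in E0 against 72.5 and 78.7 in E2 (difference -3.82 ± 0.13). Acod1, which makes the antimicrobial metabolite itaconate, stood at 7.48 and 8.20 CPM in CN against 352 and 398 in E1, then 9.25 and 12.2 in E0 against 10.3 and 14.7 in E2 (difference -5.36 ± 0.26). Nod1, a sensor of bacterial cell wall, had a type 1 response of 2.43 ± 0.06 and a type 2 response of -0.20 ± 0.06. Casp1, the inflammasome protease, rose by 2.95 with the type 1 mix and by 0.61 with the type 2 mix.

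Inducible nitric oxide synthase and arginase, textbook markers of classical and alternative activation, differed in opposite directions. Nos2 stood at 2.55 and 2.80 CPM in CN against 35.6 and 58.0 in E1, then 0.418 and 0.585 in E0 against 0.328 and 0.141 in E2, a difference of -5.22 ± 0.52 (adjusted p = 0.00025). Arg1 stood at 0.495 and 0.373 CPM in CN against 0.108 and 0.232 in E1, then 0.676 and 0.776 in E0 against 2.76 and 1.93 in E2, a difference of 3.06 ± 0.54 (adjusted p = 0.00458). Arg1 stayed below 3 CPM in every library.

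All measured members of 2 interferon-related lists differed, where 25.2% of all genes tested did. The 14 interferon-inducible GTPases, which attack vacuoles of intracellular microbes, all responded more to the type 1 mix (11 to 14 with 1 library left out), with a median type 1 response of 7.32 and a median type 2 response of 0.91. Gbp2 stood at 2.46 and 2.26 CPM in CN against 3469 and 3102 in E1, then 1.88 and 2.58 in E0 against 4.80 and 7.38 in E2. It thus rose with both mixes, by 10.44 and by 1.44, and the difference was -9.01 ± 0.33 (adjusted p = 1.36e-06). Tgtp2, whose reads can be shared with its copy Tgtp1, had a difference of -10.36 ± 0.90. Iigp1 had 0 counts in both CN libraries and was at least 2240-fold higher in E1, the bound being 3 counts over the group, and it stood at 0.167 CPM or less in E0 and E2. All 19 members of the MHC class I and immunoproteasome list, which cut and load peptides, also responded more to the type 1 mix (19 with any library left out), among them H2-Q4 at -3.75 ± 0.28. Of the antiviral interferon-stimulated genes, 28 of 29 responded more to the type 1 mix (26 to 28 with 1 library left out). Their median type 2 response was -0.11. Within that list Ifit1, an RNA-binding translation inhibitor, moved in opposite ways: it stood at 0.253 and 0.288 CPM in CN against 24.0 and 16.5 in E1, then 0.0966 and 0.227 in E0 against 0.0352 and 0.0386 in E2, the last near the counting floor.

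MHC class II genes differed in another way, since the IL-5 control E0 already stood above CN. H2-Ab1, the beta chain of the class II molecule I-A, stood at 19.4 and 8.83 CPM in CN against 108 and 105 in E1, then 49.9 and 79.0 in E0 against 53.3 and 56.3 in E2. Its response to the type 1 mix was 2.92 ± 0.35, the type 2 response was -0.23 ± 0.32 and the difference -3.15 ± 0.47 (adjusted p = 0.00192). The end levels E2 and E1 were closer, 0.96 apart on the log2 scale, because E0 exceeded CN by 2.19. Among all genes tested, 14.0% responded more to the type 1 mix. Of the 10 class II genes, 8 responded more to the type 1 mix (8 to 9 with 1 library left out), and their median E0 minus CN was 1.89. Over 15 monocyte, macrophage and dendritic cell markers the median E0 minus CN was 1.41, but their summed levels were 578 to 659 CPM in CN and 592 to 712 in E0. Among them C1qb was at 0.432 and 0.204 CPM in CN and 2.35 and 4.17 in E0, and Apoe at 48.8 and 28.3 CPM in CN and 71.9 and 133 in E0. Ly6c2, of the same list, was lower in E0 than in CN. The part of such cells in the class II values was not tested.

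Promoters of these genes were searched for 3 short motifs in the 250 bases before each RefSeq start (GRCm38.p6, both strands). Of the 15913 genes tested, 10333 matched a promoter by symbol. The core of the interferon response element, GAAANNGAAA, was present in 355 of them (3.4%). It was found in 34 of 259 matched type 1-alone higher genes (13.1%), 12 of 48 type 1-up, type 2-down genes (25.0%) and 16 of 156 genes raised by both mixes (10.3%), against 8 of 278 type 2-alone higher genes (2.9%). The STAT6-type site, TTCNNNNGAA, was present in 5.8% of all promoters, 7.9% of type 2-alone higher genes, 8.5% of type 1-alone higher genes and 9.6% of genes raised by both. The NF-kappaB-type site, GGGANTTTCC, was in 0.5% of all, 4 of 156 (2.6%) of those raised by both and 6 of 306 (2.0%) of those that fell with the type 2 mix alone. A motif can overlap another in the same window, and a match is a description of letters, not of binding.

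These windows show a match in several response patterns, 60 bases 5′ to 3′ on the gene's strand, with the match in capitals. Capitals mark a single match per window. The windows of Ifit1, Tlr6 and Socs1 hold a further match of the core, not marked, which overlaps the marked match in Tlr6 and Socs1. The interferon response element core lies in 3 genes that rose with the type 1 mix and fell with the type 2 mix (Ifit1, Fcgr4 and Tlr6), and in a chemokine and a feedback inhibitor that rose with both (Cxcl10 and Socs1). The STAT6-type site is shown for Ccl17, raised by the type 2 mix alone, for Vdr and Pdcd1lg2, raised by both, and for Retnlg, which fell with the type 2 mix alone. The NF-kappaB-type site is shown for Il6, raised by both. In Ifit1 and Tlr6 the core lies on the opposite strand, so its reverse complement is seen.
Ifit1: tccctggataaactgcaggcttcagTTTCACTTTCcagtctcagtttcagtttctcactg
Fcgr4: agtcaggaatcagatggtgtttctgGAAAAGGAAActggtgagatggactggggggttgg
Tlr6: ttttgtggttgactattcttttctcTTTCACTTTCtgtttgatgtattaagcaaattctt
Cxcl10: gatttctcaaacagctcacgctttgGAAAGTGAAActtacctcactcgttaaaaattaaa
Socs1: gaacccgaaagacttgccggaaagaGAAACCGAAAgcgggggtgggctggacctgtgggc
Ccl17: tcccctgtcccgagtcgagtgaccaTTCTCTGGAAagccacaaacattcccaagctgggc
Vdr: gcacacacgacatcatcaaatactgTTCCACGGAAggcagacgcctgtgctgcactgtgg
Pdcd1lg2: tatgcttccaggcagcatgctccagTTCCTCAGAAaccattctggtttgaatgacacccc
Retnlg: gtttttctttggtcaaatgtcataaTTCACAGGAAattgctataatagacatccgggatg
Il6: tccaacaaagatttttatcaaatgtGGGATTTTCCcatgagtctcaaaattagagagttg
The coordinates on GRCm38.p6 were chr19:34640760-34640819 (plus strand) for Ifit1, chr1:171018828-171018887 (plus strand) for Fcgr4, chr5:64959242-64959301 (minus strand) for Tlr6, chr5:92349068-92349127 (minus strand) for Cxcl10, chr16:10785579-10785638 (minus strand) for Socs1, chr8:94810274-94810333 (plus strand) for Ccl17, chr15:97908482-97908541 (minus strand) for Vdr, chr19:29410812-29410871 (plus strand) for Pdcd1lg2, chr16:48872511-48872570 (plus strand) for Retnlg and chr5:30013045-30013104 (plus strand) for Il6.

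**Figure D3:**
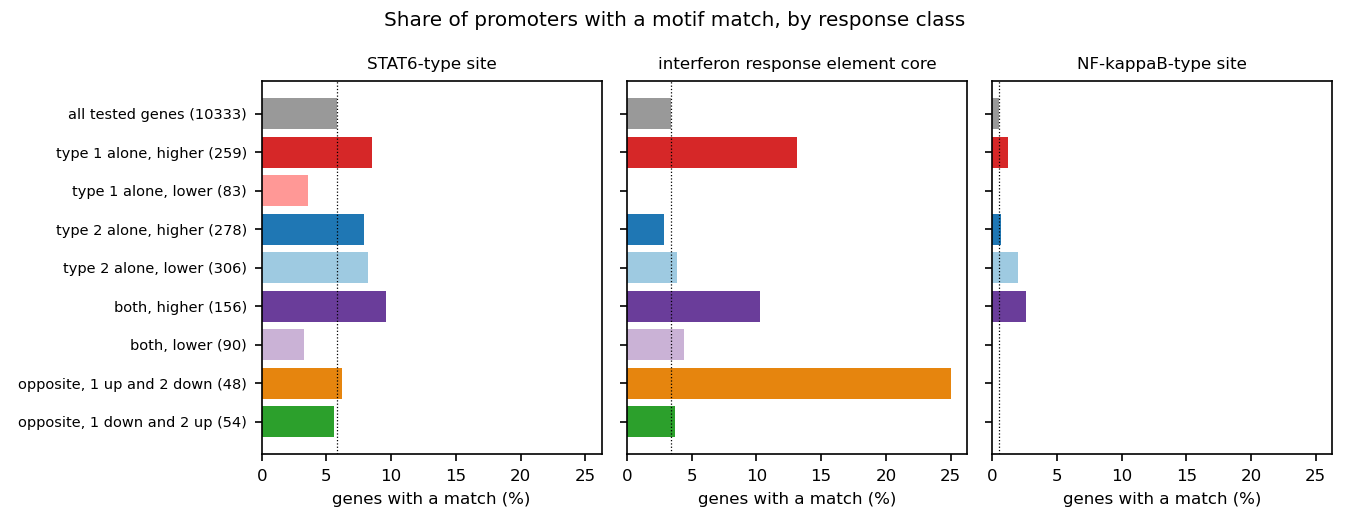
Share of genes (%) whose 250-base promoter holds a match, for the 3 motifs, over all tested genes (grey, with the dotted line at its value) and over each response class, with the number of matched genes in brackets. The interferon response element core was in 25.0% and 13.1% of the promoters of 2 type 1-raised classes against 3.4% of all, while the STAT6-type site was between 3.3% and 9.6% in every class.

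Genes raised by the type 2 mix alone included a type 2 cytokine, chemokines, kinases and transcription factors. Il13, a cytokine of mucus and allergic inflammation, stood at 14.4 and 9.93 CPM in CN against 12.3 and 5.86 in E1, then 5.84 and 4.50 in E0 against 218 and 197 in E2. Its difference was 5.75 ± 0.47 (adjusted p = 8.46e-05). Il4, in contrast, stood between 68.5 and 79.4 CPM in all 8 libraries, and its difference of 0.08 had a 95% interval of -0.17 to 0.32. Il5 rose with the type 2 mix by 0.95 (difference 1.23 ± 0.23), from 497 and 504 CPM in E0 to 966 in both E2 libraries. Reads of the Il5 gene and of an Il5 transgene cannot be told apart here. Csf2, the gene of GM-CSF, had 3 or fewer counts over each of the CN, E1 and E0 groups and stood at 1.43 and 3.74 CPM in E2, at least 123-fold above E0.

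Ccl17, a ligand of CCR4 on Th2 cells, stood at 1.53 and 1.5 CPM in CN against 1.96 and 1.88 in E1, then 1.53 and 1.65 in E0 against 76.3 and 77.4 in E2. The E2 libraries stood apart from the other 6 (difference 5.25 ± 0.13, adjusted p = 5.33e-07). Ccl3, a chemokine that draws myeloid and T cells, rose by 4.17 with the type 2 mix and by 0.60 with the type 1 mix. Pim2, a survival kinase induced by STAT5, stood at 122 and 104 CPM in CN against 95.9 and 83.1 in E1, then 49.5 and 52.6 in E0 against 732 and 773 in E2 (difference 4.22 ± 0.15). Irf4, a transcription factor of type 2 programs, had a difference of 3.09 ± 0.41, and Pou2f2, a POU-domain factor best known in B cells, one of 5.44 ± 0.23. Plet1, a lipid-anchored surface protein, had the widest difference in favour of the type 2 mix among genes that reached 10 CPM: it stood at 0.327 CPM or less in the 6 libraries of CN, E1 and E0, and at 48.3 and 46.1 CPM in E2 (difference 8.30 ± 0.37). It overlaps the antisense gene Plet1os, which moved with it, and the strand setting of the counts is not given in the sources used here. Peg10, a paternally expressed imprinted gene, stood at 233 and 248 CPM in E2 and at 4.90 CPM or less in the other groups, and its imprinted neighbour Sgce rose with it (differences 7.16 ± 0.20 and 4.41 ± 0.41).

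Falls with the type 2 mix alone numbered 458, against 381 rises with the type 1 mix alone, but 286 against 299 at an adjusted p below 0.01 and 114 against 216 at 4-fold. Retnlg, a resistin-like secreted protein of neutrophils, stood at 1031 and 894 CPM in CN against 734 and 650 in E1, then 1259 and 1068 in E0 against 27.5 and 23.3 in E2 (difference -5.04 ± 0.19, adjusted p = 1.63e-06). Ccr3 stood at 2058 and 2097 CPM in CN against 2083 and 1977 in E1, then 2590 and 2561 in E0 against 1191 and 1318 in E2, so it fell with the type 2 mix (-1.04 ± 0.09) and had a type 1 response of -0.03 ± 0.09 (adjusted p of the difference = 0.00082). Bcl6, a repressor that counters STAT6 at shared sites, fell by 2.12 with the type 2 mix, with a type 1 response of -0.06 ± 0.14. Cxcr4, the receptor that retains cells in bone marrow, fell by 1.46 with a type 1 response of 0.52 ± 0.18. The eosinophil-associated RNases Ear1 and Ear2, granule proteins of a multigene family whose reads can be shared, differed by -2.95 ± 0.68 and -2.28 ± 0.52.

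Falls with the type 1 mix alone were fewer. Cxcr2, a receptor for neutrophil-attracting chemokines, stood at 137 and 111 CPM in CN against 23 and 14.7 in E1, then 115 and 165 in E0 against 134 and 160 in E2. Only the E1 libraries were low, and the difference was 2.78 ± 0.33 (adjusted p = 0.000647). Fn1, the gene of fibronectin, stood at 41.0 and 23.1 CPM in CN against 0.561 and 0.491 in E1, then 14.4 and 27.0 in E0 against 11.2 and 10.0 in E2 (difference 4.95 ± 0.52). Its type 2 response of -0.97 ± 0.32 was also called (adjusted p = 0.047), a fall just under 2-fold. The inhibitory lectin Cd33 had a type 1 response of -2.34 ± 0.15 and a type 2 response of 0.65 ± 0.15. Il1r2, the decoy receptor of IL-1, fell by 1.83 with the type 1 mix and rose by 0.82 with the type 2 mix, and its neighbours Il1r1 and Il1rl2 on chromosome 1 were in the same class (differences 1.39 ± 0.36 and 0.99 ± 0.29).

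Of the 216 genes that both mixes raised, 109 had no called difference of responses, 63 responded more to the type 1 mix and 44 more to the type 2 mix. A missing call is not equality: of the 109, 26 had a 95% interval of the difference within 2-fold either way. Rmi2, a subunit of the DNA-repair complex that dissolves recombination intermediates, was one: it stood at 0.527 and 0.505 CPM in CN against 15.4 and 12.9 in E1, then 0.435 and 0.621 in E0 against 13.4 and 14.3 in E2. Its responses were 4.77 and 4.69, and the difference of -0.08 had an interval of -0.68 to 0.52. Ikbke, a kinase of the NF-kappaB and interferon pathways, rose by 4.10 and 4.12 (difference 0.02 ± 0.24). Ccl22, the other CCR4 ligand, stood at 0.980 and 0.517 CPM in CN against 36.8 and 19.8 in E1, then 1.40 and 2.88 in E0 against 80.7 and 120 in E2. It rose by 5.22 and 5.53, and its wider interval of -1.13 to 1.73 leaves room for a difference of over 2-fold. Ccl17 and Ccl22 thus belonged to different classes although both bind CCR4. Socs1, the feedback inhibitor of JAK kinases, rose by 2.08 and 2.54, with a difference of 0.45 ± 0.21 (adjusted p = 0.164), which was called with the replicate block (0.46, adjusted p = 0.00147). Pdcd1lg2, which encodes the checkpoint ligand PD-L2, rose by 1.80 and 2.50, with a difference of 0.69 ± 0.34 (adjusted p = 0.178). It was called with the block (0.71, adjusted p = 0.0314) and without E0 replicate 2 (1.08, adjusted p = 0.0466).

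Checkpoint and attraction signals that favoured the type 1 mix also rose with the type 2 mix. Cd274, the gene of PD-L1, stood at 47.3 and 57.7 CPM in CN against 911 and 937 in E1, then 25.6 and 33.0 in E0 against 121 and 137 in E2 (difference -2.00 ± 0.20, adjusted p = 0.000227). Cxcl10, a chemokine for CXCR3-bearing T cells, stood at 0.105 and 0.0841 CPM in CN against 192 and 188 in E1, then 0.0322 and 0.0716 in E0 against 1.13 and 1.5 in E2 (difference -6.39 ± 0.67). Icam1, the adhesion ligand of beta-2 integrins, rose by 3.37 and 1.62, Cd40 by 6.42 and 1.99, and Ccl5, a ligand of CCR3, by 6.19 and 3.04.

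Cytokine and activation genes of both mixes that favoured the type 2 mix included Il6, which stood at 1.25 and 2.26 CPM in CN against 18.9 and 24.4 in E1, then 2.01 and 1.95 in E0 against 98.0 and 97.0 in E2 (difference 1.99 ± 0.33, adjusted p = 0.00341). The E1 libraries lay between the controls and the E2 libraries. Il1a, an alarm cytokine, rose by 1.46 with the type 1 mix and by 4.86 with the type 2 mix. Vdr, the vitamin D receptor, rose by 2.70 and 6.72 and the activation antigen Cd69 by 1.73 and 5.41. Nfkbiz, an atypical IkappaB protein that switches on secondary NF-kappaB targets such as Il6, rose by 1.03 and 3.28 (difference 2.25 ± 0.22).

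Of the 129 genes that both mixes lowered, 105 had no called difference, 12 fell more with the type 1 mix and 12 more with the type 2 mix. Apoe, a lipid carrier abundant in macrophages, stood at 48.8 and 28.3 CPM in CN against 2.03 and 2.05 in E1, then 71.9 and 133 in E0 against 2.14 and 2.65 in E2. It fell by 4.24 and 5.42, to about 2 CPM in either case. Its difference of -1.18 ± 0.47 (adjusted p = 0.108) was called with the replicate block (-1.16, adjusted p = 0.00572), without CN replicate 1 (-1.64, adjusted p = 0.0385) and without E0 replicate 1 (-1.55, adjusted p = 0.0286). Mmp8, the neutrophil collagenase, fell by 2.85 and 3.55. Csf3r, the G-CSF receptor, fell more with the type 1 mix, from 432 and 400 CPM in CN to 32.7 and 27.7 in E1, than with the type 2 mix, from 201 and 355 CPM in E0 to 92.5 and 118 in E2 (difference 2.38 ± 0.34, adjusted p = 0.00157). A block of 9 Ugt1a glucuronosyltransferase genes on chromosome 1 (88055388 to 88220002) stands in this class, but they share exons, so their counts are not separate measurements.

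**Figure D4:**
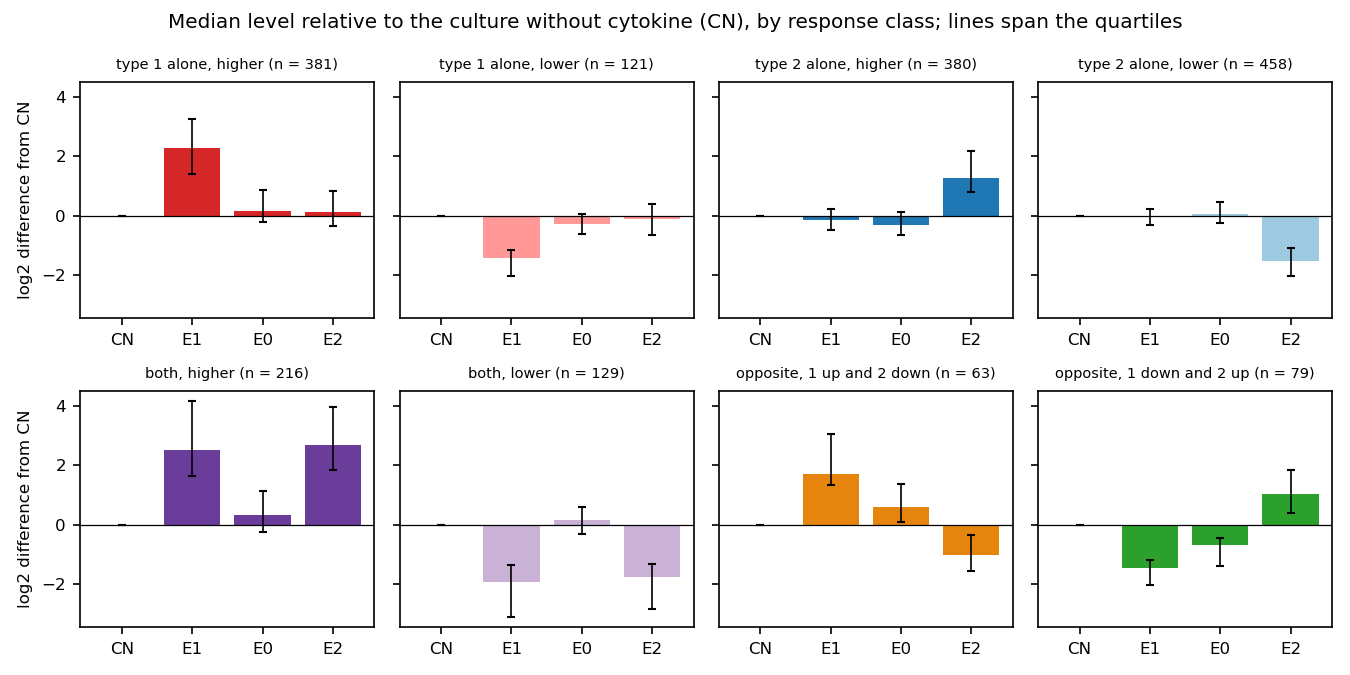
Median log2 difference from CN in each group, for the genes of each response class, with vertical lines spanning the quartiles over genes (CN is 0 by construction). For the 79 genes that fell with the type 1 mix and rose with the type 2 mix the E0 bar is at -0.69 and the E2 bar at 1.03, and for the 63 that did the reverse the E0 bar is at 0.59 and the E2 bar at -1.02. The classes were sorted on these same groups, CN and E0 among them.

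The 2 controls did not start level. A difference of responses equals the gap between E2 and E1 minus the gap between E0 and CN, and for 655 of the 4018 called genes (16.3%) the gap between the controls was the larger. In the opposite classes most genes stood, in the IL-5 control, on the side to which the type 1 mix moved them: among the 79 genes lowered by the type 1 mix and raised by the type 2 mix, E0 was below CN for 69, 46 of them called. Among the 63 genes of the reverse kind, E0 was above CN for 49, 24 of them called. Of the 380 type 2-alone higher genes, E0 was below CN for 265, 134 of them called. Over all genes tested the median E0 minus CN was 0.01, and the share with a called gap is not given here. The sorting into classes uses CN and E0 themselves, so it favours such gaps and partly fixes these counts in advance. Whether IL-5 or the experiment made these starting gaps cannot be told apart.

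Of 22 receptors and signalling genes of IFN and TNF, 14 responded more to the type 1 mix (13 to 14 with 1 library left out) and 8 had no called difference. Besides Irf1 they included Batf2, an IFN-induced leucine zipper factor (-4.04 ± 0.21), and Nlrc5, the transactivator of MHC class I genes (-3.83 ± 0.11). Ifngr1, the ligand-binding IFN-γ receptor chain, lay at 109 to 144 CPM in all libraries and had a difference of -0.04 ± 0.11. Of 24 genes of the IL-5 and GM-CSF receptors, STAT5 and its targets, 14 responded more to the type 2 mix (13 to 15 with 1 library left out) and 4 less (7 with the replicate block). The 4 that responded less were the receptor chains Il5ra and Il3ra and the transducers Stat5a and Stat5b, while the 14 included the targets Pim2, Pim1, Cish and Bcl2l1. Of all genes tested, 11.3% responded more to the type 2 mix and 14.0% less. Il3ra and Stat5b differed by -0.73 ± 0.12 and -0.61 ± 0.10. The call of Il5ra (-0.42 ± 0.12, adjusted p = 0.0342) was lost when any of 4 libraries was left out, with adjusted p up to 0.127: CN replicate 2, E1 replicate 1, E0 replicate 1 and E2 replicate 2.

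Of 24 genes of the IL-4 receptor, STAT6 and alternative activation, 11 responded more to the type 2 mix (8 to 11 with 1 library left out), and 3 less (5 without E0 replicate 1 and 5 with the replicate block). Of all genes tested, 11.3% responded more to the type 2 mix and 14.0% less. Il4ra, the receptor chain that binds IL-4, rose with the type 2 mix (difference 1.83), while Stat6 itself fell by 0.68 (difference -0.91 ± 0.14). Of 20 genes of IL-33 and IL-1 family signalling, 11 responded more to the type 2 mix, 7 without E2 replicate 2. Il1rl1, the gene of the IL-33 receptor ST2, stood at 689 and 656 CPM in CN against 512 and 444 in E1, then 603 and 609 in E0 against 855 and 871 in E2, a fall and a rise of 0.49 and 0.51 (difference 1.00 ± 0.12, adjusted p = 0.000767). The kinase Map3k8 differed by 2.64 ± 0.23. Feedback inhibitors leaned to the type 2 mix: 10 of 20 SOCS and receptor feedback genes responded more to it (7 to 10 with 1 library left out). Cish, a STAT5 target that dampens cytokine receptors, stood at 418 and 401 CPM in CN against 226 and 215 in E1, then 216 in both E0 libraries against 842 and 838 in E2 (difference 2.85 ± 0.10, adjusted p = 1.06e-06). Socs3 differed by 2.04 ± 0.13.

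NF-kappaB genes, of a route that both mixes use, went both ways. Of 20, 7 responded more to the type 2 mix (5 to 7 with 1 library left out), 4 to the type 1 mix (3 to 4) and 9 had no called difference, and 9 were in the class raised by both. Of all genes tested, 11.3% responded more to the type 2 mix and 14.0% to the type 1 mix. Tnfaip2 favoured the type 1 mix (-3.35 ± 0.28), as did the deubiquitinase Cyld (-0.69 ± 0.12). Nfkbiz, Tnip1 (1.40 ± 0.15) and the precursor subunit Nfkb1 (0.95 ± 0.10) favoured the type 2 mix.

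Survival genes went both ways, where 11.3% of all genes tested responded more to the type 2 mix and 14.0% to the type 1 mix. Of 22 BCL-2 family and caspase genes, 7 responded more to the type 2 mix (6 to 7 with 1 library left out) and 8 to the type 1 mix. The 8 became 5 without E0 replicate 2, 4 without E2 replicate 1 and 5 without E2 replicate 2. The 7 were the anti-apoptotic Bcl2, Bcl2l1, Bcl2a1a, Bcl2a1b and Bcl2a1d, the pro-apoptotic Bmf and the death receptor gene Fas. The 3 Bcl2a1 genes are near-identical neighbours on chromosome 9 whose reads can be shared. Bcl2a1d stood at 37.1 and 32.3 CPM in CN against 28.4 and 25.7 in E1, then 16.7 and 22.8 in E0 against 121 and 142 in E2 (difference 3.09 ± 0.22). The 8 included Casp1 and the pro-apoptotic Bbc3, whose call (-1.35 ± 0.31, adjusted p = 0.0134) was lost without E2 replicate 1 (adjusted p = 0.0563).

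Other effector lists were mixed. Of 15 measured chemokine genes, 4 responded more to each mix, where 11.3% of all genes tested responded more to the type 2 mix and 14.0% to the type 1 mix. The 4 of the type 2 mix became 2 without E1 replicate 2, without E0 replicate 1 and without E2 replicate 2. Of 21 tissue remodelling and growth factor genes, 10 responded more to the type 2 mix (8 to 10 with 1 library left out) and 3 to the type 1 mix (6 with the replicate block). Mmp14, a membrane-bound collagenase, stood at 1.53 and 0.613 CPM in CN against 17.1 and 19.3 in E1, then 5.39 and 8.64 in E0 against 3.39 and 4.31 in E2 (difference -4.94 ± 0.54). Mmp12, the macrophage elastase, differed the other way (3.56 ± 0.57). Of 7 granule protein genes, 3 responded less to the type 2 mix, 5 without E0 replicate 2 and 5 with the replicate block. The major basic protein gene Prg2 stood at 450 and 509 CPM in CN against 480 and 393 in E1, then 336 and 185 in E0 against 148 and 94.5 in E2. Its difference of -0.96 ± 0.40 was not called (adjusted p = 0.122), but was with the replicate block (-0.93, adjusted p = 0.000515) and without E0 replicate 2 (-1.33, adjusted p = 0.0249). Epx, the eosinophil peroxidase, behaved likewise: -1.62 ± 0.55 (adjusted p = 0.0652), -1.61 with the block (adjusted p = 2.24e-05), -2.09 without E0 replicate 2 (adjusted p = 0.0128) and -2.18 without E2 replicate 1 (adjusted p = 0.0408).

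Ribosomal protein genes differed by little but mostly 1 way, and ribosome biogenesis genes did not follow them. Among all genes tested, 14.0% had a called difference with the lower type 2 response. Of 30 cytosolic ribosomal protein genes, 24 had the lower type 2 response (19 to 24 with 1 library left out), with a median type 1 response of 0.19 and a median type 2 response of -0.47. The summed level of the 30 genes was 9587 to 10610 CPM in CN, 11030 to 11720 in E1, 6548 to 6884 in E0 and 4683 to 4685 in E2, so the E0 libraries were already below CN. For the lists that follow, 11.3% of all genes tested responded more to the type 2 mix, and 3212 of 15913 with the replicate block. Of 25 ribosome biogenesis genes, the 3 with a called difference responded more to the type 2 mix (7 with the replicate block; 0 without CN replicate 1, E0 replicate 1 or E2 replicate 2, and 1 without E1 replicate 2 or E2 replicate 1). Of 24 genes of the unfolded protein and integrated stress response, 9 responded more to the type 2 mix (7 to 11 with 1 library left out, 14 with the replicate block), led by Xbp1 and the serine synthesis enzyme Psat1 (2.41 ± 0.18). Of 16 amino acid and glucose transporters, 7 did so, 4 without E1 replicate 1, without E0 replicate 1 or without E2 replicate 2. Of 24 glycolysis and hypoxia genes, 8 responded more to the type 2 mix, where 11.3% of all genes did (13 with the replicate block, where 3212 of all 15913 did), among them Slc2a3, a glucose transporter (1.11 ± 0.12), and Pfkp, a phosphofructokinase (1.07 ± 0.11).

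**Figure D5:**
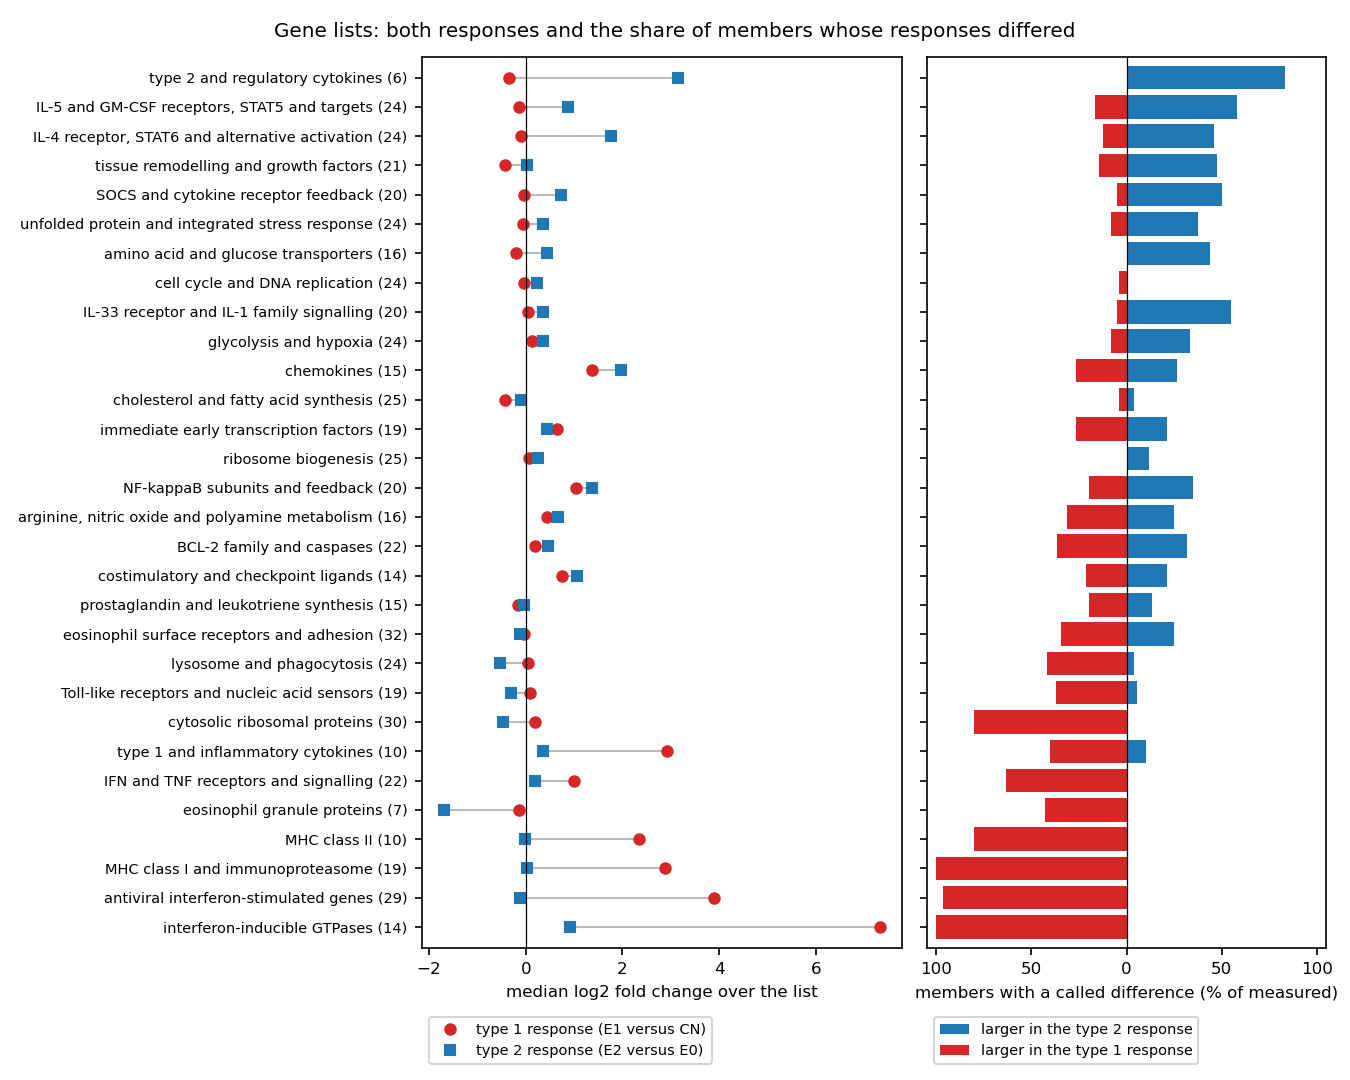
Left, the median log2 fold change over the measured members of each gene list (number in brackets) in the type 1 response (red circles) and the type 2 response (blue squares). Right, the share of members (%) with a called difference of responses, to the right where the type 2 response was the more positive and to the left where the type 1 response was. All 14 interferon-inducible GTPases and all 19 MHC class I genes lie to the left, and 24 of 30 ribosomal protein genes do.

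Some neighbouring genes shared a class. Classed genes of all types, protein-coding or not, numbered 1827. Along the chromosomes there were 28 runs of 3 or more adjacent tested protein-coding genes of 1 class, with 102 genes. Of these runs, 14 with 50 genes were of the type 1-alone higher class. They included H2-DMb1, Psmb9, Tap1, Psmb8 and Tap2 (chromosome 17, 34153072 to 34216321), which load and cut peptides for antigen presentation, and H2-Ab1, H2-Aa and H2-Eb1 beside them. On chromosome 3 (90603771 to 90624181) the calcium-binding S100a4, S100a5 and S100a6 fell with the type 1 mix and rose with the type 2 mix. S100a6 stood at 677 and 561 CPM in CN against 320 and 212 in E1, then 412 and 405 in E0 against 971 and 999 in E2 (difference 2.49 ± 0.25). On chromosome 9 (88723285 to 89215471) the 3 Bcl2a1 genes stood in a run of 6 genes raised by the type 2 mix alone. Genes of a run can be recent duplicates or overlap, so their counts are not all independent.

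Markers of other blood cells moved with some of these results. The summed level of 15 monocyte, macrophage and dendritic cell markers was 578 to 659 CPM in CN, 4657 to 4990 in E1, 592 to 712 in E0 and 853 to 897 in E2, and in E1 it was mostly Ly6c2. Of the complement genes that define macrophages, C1qb lay between 0.204 and 4.17 CPM and C1qc between 0.0481 and 1.44 CPM. Of the 15, 6 responded more to the type 1 mix and 2 to the type 2 mix, where 14.0% and 11.3% of all genes tested did. The summed level of 11 neutrophil markers was 2656 to 3043 CPM in CN, 1326 to 1789 in E1, 2773 to 3471 in E0 and 930 to 1323 in E2, with 3 of 11 called each way. With the type 1 mix 6 of the 11 neutrophil markers fell and Ly6g alone rose, and with the type 2 mix 5 fell, Ly6g and Retnlg among them. Among all genes tested, 8.08% were called lower and 9.19% higher with the type 1 mix, and 18.5% lower with the type 2 mix. The monocyte marker Cx3cr1 fell with both mixes (difference -2.91 ± 0.55). The part of such cells in the results was not tested. Lyz1, a lysozyme of myeloid cells, was among the widest differences (-8.12 ± 1.78, adjusted p = 0.012), but its libraries disagreed: 19.5 and 0.695 CPM in E1 and 8.45 and 27.8 CPM in E0. It was not called without E2 replicate 1 or without E2 replicate 2 (adjusted p up to 0.0653). Of 24 measured markers of lymphoid cells, basophils and mast cells, platelets and erythroid cells, summing to 409 to 550 CPM, Cd8a and Ighm had a called difference. Of all genes tested, 25.2% had one. With the replicate block within each experiment 10 of the 24 had one, where 42.9% of all genes did. The call of Cd8a was lost without CN replicate 2, E1 replicate 1, E0 replicate 1, E2 replicate 1 or E2 replicate 2. Cells had been depleted of CD90-positive and B220-positive cells and stained for purity above 97%.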

How the data were processed

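The values are raw read counts per Ensembl gene for 8 RNA-seq libraries, deposited as 1 table. STAR, featureCounts and mm10 are named in the submitters' processing notes, without versions; neither the strand setting nor a filter on low counts is stated there. A row without a gene name, equal to 100% of the counts of the named genes, was left out.

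Counts were analysed in R 4.3.3 with edgeR 4.0.16 (filterByExpr, TMM, a mean per group, quasi-likelihood F test, 4 residual degrees of freedom); 15913 of 15917 genes were tested. The contrast was (E2 minus E0) minus (E1 minus CN). Low counts limit precision: a gene with 3 or fewer counts over a group was given no fitted change. Coordinates and symbols came from the reference annotation (15726 genes matched, 187 not). On simulated counts the fit was tested with 200 changed genes.

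The members, classes and gene lists were chosen with earlier results of these data known. Named genes were the 12 largest differences each way and the first 6 of each class at 10 CPM or more, up to 3 members of each list each way, and a set list of cytokines, receptors and transcription factors. Members of neighbouring runs (with Ly6c1, Sgce, Il1r1, Il1rl2 and S100a6), Ikbke, Ifngr1, Il4ra, Bcl2a1a, Bcl2a1b, Bmf, Fas, C1qb, C1qc and Cd8a were added after their values were seen.

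Replicate numbers come from the titles. Deviations from the group means of same-numbered libraries correlated in all 6 pairs of groups (Pearson's r 0.275 to 0.72 over 13285 genes), so the numbers may pair the samples. The main fit held only a mean per group, so its standard errors, calls and classes ignore such a pairing. A fit with the replicate number as a block is given beside a result where it changes the call. Alternatives were DESeq2 1.42.0, limma 3.58.1 with voom, other scalings and filters, the block, other thresholds and leaving out each library. Some genes and a motif are not reported here.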

Additional observations from a re-analysis of the deposited data

How the results depend on the processing

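No named gene reversed in any alternative. Of 186 named genes compared, 167 were called; 28 lost the call when 1 library was left out and 11 in another setting, among them Serpina3g and Lyz1 with voom. Of the 4018 calls, 2330 held with each library left out in turn, and totals without TMM gave 53.4% higher among the calls against 44.7%. With the replicate block within each experiment, 6821 genes were called (3212 higher, 3609 lower) and 189 fell with the type 1 mix alone. Of the 4018 calls, 4017 were kept, with the same sign. Besides the genes named with a block value above, the block gained calls for named genes such as Mmp8 and Trf. It lost no call among the named genes compared.

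At an adjusted p below 0.01, 2221 genes were called (941 higher, 1280 lower), and the classes numbered 68 (type 1 alone, lower), 286 (type 2 alone, lower) and 35 (type 1 up, type 2 down). With 1.5-fold in place of 2-fold they numbered 212 (type 1 alone, lower), 579 and 781 (type 2 alone, higher and lower), 325 and 206 (both, higher and lower), 124 (type 1 up, type 2 down) and 168 (type 1 down, type 2 up). With 4-fold for the mixes that moved the gene they numbered 216 and 31 (type 1 alone), 116 and 114 (type 2 alone), 75 and 44 (both), and 12 in each opposite class. All of these counts come from the main fit with only the threshold changed.

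With 1 library left out, where the lone library of a group is assumed to vary like the others, the higher differences ranged from 1177 to 1753, the type 1-alone falls from 86 to 186 and the type 1-up, type 2-down genes from 37 to 69; the cause was not tested. The other totals of calls and classes stayed within 1.5 times; list counts that moved by more are given beside them. Folds of genes near the floor of 3 counts are imprecise.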
